A study of Rosa hybrid cultivar with 39 samples.

Results

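Petals given the auxin NAA were compared directly with petals given the cytokinin 6-BA, and each gene that differed was then placed by its level in water-treated petals. Of 30208 gene identifiers in the series, 13919 had an average of at least 1 FPKM (fragments per kilobase of transcript, scaled to all fragments of the library) in NAA or 6-BA and were compared. The comparison rests on 3 NAA libraries and 3 6-BA libraries, with 3 H2O libraries as the common control, of 39 libraries in 13 conditions. All were from the outer petals of cut flowers of the rose cultivar 'Samantha' at opening stage 2. Cut stems of the first group stood in 100 µM NAA (1-naphthaleneacetic acid), those of the second in 100 µM 6-BA (6-benzylaminopurine) and those of the third in deionized water (H2O), each for 24 h. Values in 7 further treatments, given the same way for 24 h, are used for reference. These were 100 µM of the synthetic auxin 2,4-D, 5 µM of the brassinosteroid BR, 100 µM of ABA (abscisic acid), 80 µM of GA (gibberellic acid), 50 µM of JA (jasmonic acid), 100 µM of SA (salicylic acid) and 80 µM of the ethylene inhibitor AgNO3. Each library pooled petals of several flowers. The deposited values are 1 average per condition, so no spread between the replicates can be given for any value here and no difference was tested. Each ratio was taken as log2 after adding 1 to both FPKM values, so differences at low levels come out smaller than they are. "Higher" and "lower" below mean at least 2-fold apart on that scale, as a description.

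NAA is a synthetic auxin. Auxins bind F-box receptors of the TIR1 and AFB kind, which leads to the breakdown of Aux/IAA repressors and frees auxin response factors to act on genes such as those of the Aux/IAA, SAUR and GH3 families. 6-BA is a synthetic cytokinin. Cytokinins are sensed by histidine kinases at membranes, and the signal passes through phosphotransfer proteins to response regulators in the nucleus. In cut flowers cytokinins are known for delaying petal senescence, and in many plant organs auxin and cytokinin act against each other. The deposited genes carry identifiers that are not paired with names, so neither these families nor petal marker genes could be looked up, and no role is given for any gene below.

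NAA and 6-BA petals differed mainly by genes that were higher in NAA. There were 416 genes higher in NAA than in 6-BA, which is 2.99% of the genes compared, and 56 genes lower, which is 0.402%. Together they were 472 genes, or 3.39%, and the higher genes made up 88.1% of them. The whole distribution was shifted little, with a median log2 ratio of 0.04 and quartiles of -0.17 and 0.25. Its upper tail was longer than its lower one, since 1% of the genes lay above 1.42 and 1% below -0.82. The 2-fold limit does not mark a gap. The higher side had 54 genes with a log2 ratio within 0.05 above the limit and 40 within 0.05 below it, and the lower side had 9 within 0.05 past it and 18 just short of it. In the plot of both averages the higher genes form a band along the lower and middle levels, while the lower genes are few and scattered up to LOC112177241, at 643 FPKM in NAA and 1303 in 6-BA.

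**Figure D1:**
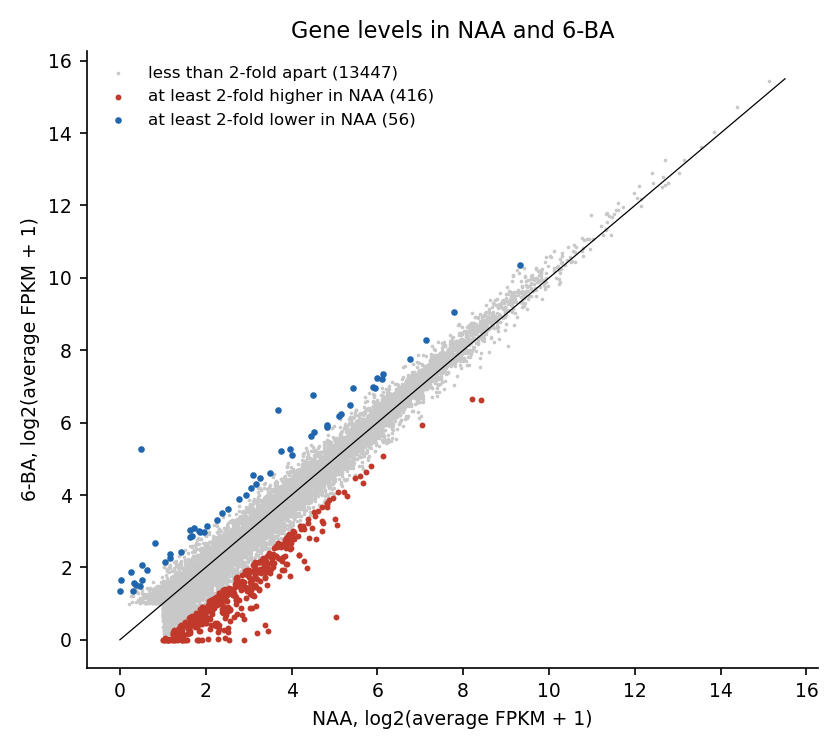
Average level of each of 13919 genes in NAA (x axis) and in 6-BA (y axis), both as log2(FPKM + 1), with the line of equal levels. The 416 genes at least 2-fold higher in NAA (red) lie below the line at mostly low levels, and the 56 lower genes (blue) lie above it.

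The genes on each side differed in their level of expression. Genes higher in NAA had a median average of 4.89 FPKM in NAA, 1.22 in 6-BA and 1.96 in H2O. Genes lower in NAA had a median of 6.24 FPKM in NAA, 16.2 in 6-BA and 8.52 in H2O. Over all genes compared the medians were 10.3 in NAA, 9.41 in 6-BA and 9.39 in H2O. Among the 2646 genes whose larger average was from 2 to 5 FPKM, 5.82% were higher in NAA and 0.340% were lower. Among the 2721 genes of at least 50 FPKM, 0.221% were higher and 0.662% were lower. The balance of higher against lower genes therefore turned among genes of at least 50 FPKM, where 6 genes were higher and 18 were lower. The median log2 ratio of that class was -0.15, against 0.12 to 0.13 in the 3 classes under 10 FPKM. FPKM is a relative measure that is also divided by transcript length, and the sum of all FPKM was 810567 in NAA, 901069 in 6-BA and 897264 in H2O. The gene with the highest value in each, LOC112199140, was at 35884 FPKM in NAA, 44517 in 6-BA and 42339 in H2O.

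For each gene the side that had moved away from H2O was then read from the ratios of NAA and of 6-BA to the H2O average. Both ratios share that average. Of the 472 genes apart, 261 had at least 1 side 2-fold away from H2O and 211 had neither. Among the 416 higher genes, NAA alone was 2-fold away from H2O in 180 and 6-BA alone in 36. Both were away in opposite directions in 8, both in the same direction in 5, and neither in 187. Among the 56 lower genes, NAA alone was away in 12, 6-BA alone in 19, both in the same direction in 1, neither in 24 and none in opposite directions. By the larger of the 2 distances to H2O, NAA was the side that had moved in 311 higher genes and 6-BA in 105, while among the lower genes each was the side in 28. By that measure, which sets no limit on the distance, the higher genes were mostly nearer to H2O in 6-BA, and the lower genes were evenly divided. By the 2-fold limit, neither was the largest class, with 45% of the higher and 42.9% of the lower genes. NAA alone held 43.3% of the higher genes. For reference, 2.28% of the 13919 genes were at least 2-fold higher in NAA than in H2O and 0.266% lower, together 2.55%, and in 6-BA 0.841% were higher than in H2O and 0.388% lower, together 1.23%. H2O lay between NAA and 6-BA in 77.2% of the higher genes and 67.9% of the lower ones, and in 42.1% of all genes compared. The genes apart were chosen for the distance between NAA and 6-BA, so these shares are a description.

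**Figure D2:**
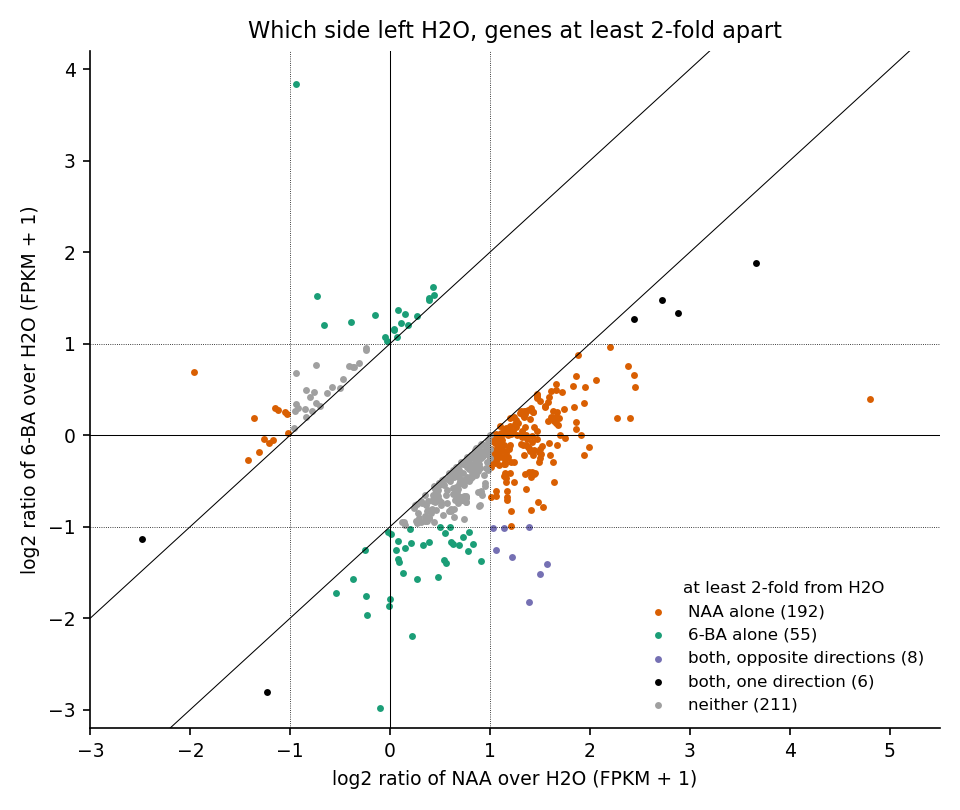
Log2 ratio of NAA over H2O (x axis) and of 6-BA over H2O (y axis) for the 472 genes at least 2-fold apart between NAA and 6-BA, coloured by the side that was at least 2-fold from H2O. Diagonal lines mark the 2-fold distance between NAA and 6-BA and dotted lines 2-fold from H2O, and the 192 genes of NAA alone and 211 of neither make up most of the points.

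By the rule of their class, the 180 genes placed on the NAA side were less than 2-fold from H2O in 6-BA. Their median was 5.56 FPKM in NAA, 1.38 in 6-BA and 1.41 in H2O, and their median log2 ratio to H2O was 1.34 in NAA and -0.04 in 6-BA. LOC112184652 (NC_037089.1:59671218-59763525) had the largest log2 ratio of NAA over 6-BA among genes of at least 10 FPKM, 4.40, with 32.0 FPKM in NAA, 0.557 in 6-BA and 0.185 in H2O. Its values rest on the division of reads at its locus, which is shared by 5 identifiers. Summed over them, the locus was at 183 FPKM in NAA, 197 in 6-BA and 176 in H2O, and the gene held 17.4% of that sum in NAA and 0.283% in 6-BA. The locus as a whole thus differed little between the treatments, with a log2 ratio of -0.10. LOC112186107 (NC_037089.1:7162954-7175256), alone at its locus, was at 14.6 FPKM in NAA, 2.40 in 6-BA and 5.75 in H2O. It was counted with NAA, but 6-BA stood at a log2 ratio of -0.99 to H2O, just short of the limit on the other side.

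A small group of higher genes was placed on the 6-BA side. By the rule of this class they were at least 2-fold below H2O in 6-BA and less than 2-fold from it in NAA. The median of these 36 genes was 4.81 FPKM in NAA, 0.775 in 6-BA and 3.79 in H2O. LOC112189945 (NC_037089.1:2166529-2170369) was at 13.2 FPKM in NAA, 2.81 in 6-BA and 7.76 in H2O. LOC112174811 (NC_037093.1:25182798-25187002) was at 12.7 in NAA, 2.79 in 6-BA and 6.92 in H2O. In both genes NAA also stood above H2O, by log2 ratios of 0.69 and 0.79.

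In 8 genes the averages were 2-fold from H2O on both sides and in opposite directions, and in all 8 NAA was above H2O and 6-BA below. The count depends on the treatment of low values, since a pseudocount of 0.1 in place of 1 gave 55 such genes and 4 in the other direction. They ranged from 3.16 to 19.7 FPKM in NAA, from 0.000765 to 2.92 in 6-BA and from 1.04 to 6.89 in H2O, an order set by how they were chosen. The lowest 6-BA value belongs to LOC112176469, whose locus is shared by 10 identifiers. Their log2 ratios of NAA over 6-BA were between 2.04 and 3.21. LOC112178799 (NC_037094.1:826805-831475) was the only one of them to reach 10 FPKM, with 19.7 in NAA, 2.92 in 6-BA and 6.89 in H2O. Its log2 ratio of 6-BA to H2O, -1.01, was just past the limit, as was the -1.02 of both LOC112169827 and LOC112189359. LOC112166081 (NC_037092.1:80727221-80732420) had the largest distance, with 9.94 FPKM in NAA, 0.179 in 6-BA and 3.19 in H2O.

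Both treatments were at least 2-fold from H2O in the same direction in 6 of the genes apart. LOC112168074 (NC_037092.1:70413193-70414188) was the most abundant gene higher in NAA, at 339 FPKM in NAA, 97.4 in 6-BA and 25.8 in H2O. LOC112199856 (NC_037091.1:49286866-49361273) was below H2O in both, at 20.1 in NAA, 6.04 in 6-BA and 48.4 in H2O. It shares its locus with 7 further identifiers, and the sum over all 8 was 957 FPKM in NAA, 1185 in 6-BA and 785 in H2O. That sum ran the other way, above H2O in both and lower in NAA than in 6-BA at a log2 ratio of -0.31. LOC112199856 held 2.1% of the sum in NAA and 0.51% in 6-BA. LOC112201649 was the only lower gene with both treatments 2-fold from H2O in the same direction, at 2.31 in NAA, 7.45 in 6-BA and 17.5 in H2O. A further 23 genes were 2-fold from H2O in the same direction in both treatments but less than 2-fold apart from each other.

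The largest single difference was in a gene lower in NAA, but the median log2 ratio was -1.15 in the lower genes and 1.25 in the higher ones. LOC112201019 (NC_037091.1:330903-347927) had the lowest log2 ratio, -4.78, with 0.405 FPKM in NAA, 37.7 in 6-BA and 1.70 in H2O. The side that had moved was 6-BA, at a log2 ratio of 3.84 to H2O against -0.94 in NAA. The gene held 0.137% of the sum at its locus in NAA and 8.03% in 6-BA, and that sum, over 2 identifiers, was 297 FPKM in NAA, 469 in 6-BA and 253 in H2O. The sum was thus also lower in NAA, but at a log2 ratio of only -0.66. LOC112187601 (NC_037089.1:30542153-30586886) was at 21.7 FPKM in NAA, 107 in 6-BA and 36.6 in H2O, and again 6-BA was the side away from H2O. Here the sum over 4 identifiers kept the 2-fold difference, at 76.3 FPKM in NAA, 189 in 6-BA and 83.6 in H2O. The value listed for LOC112187601 itself varied widely, at 132 FPKM in ABA, 31.1 in 2,4-D, 25.8 in SA and 4.60 in JA. It was at 0.003 in BR, 1.18e-11 in GA and 4.54e-15 in AgNO3. Its neighbour LOC112187519, at the same deposited locus, stood at 42.5 in NAA, 69.8 in 6-BA and 34.0 in H2O.

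NAA was the side away from H2O in 12 lower genes. LOC112178890 (NC_037094.1:19162015-19163038) was at 11.8 FPKM in NAA, 80.1 in 6-BA and 49.2 in H2O. LOC112180939 (NC_037088.1:62242966-62243912) was at 7.56 in NAA, 22.3 in 6-BA and 18.0 in H2O. Both are alone at their loci, and in both 6-BA stood above H2O, by log2 ratios of 0.69 and 0.29, while the ratios of NAA to H2O were -1.97 and -1.15.

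**Figure D3:**
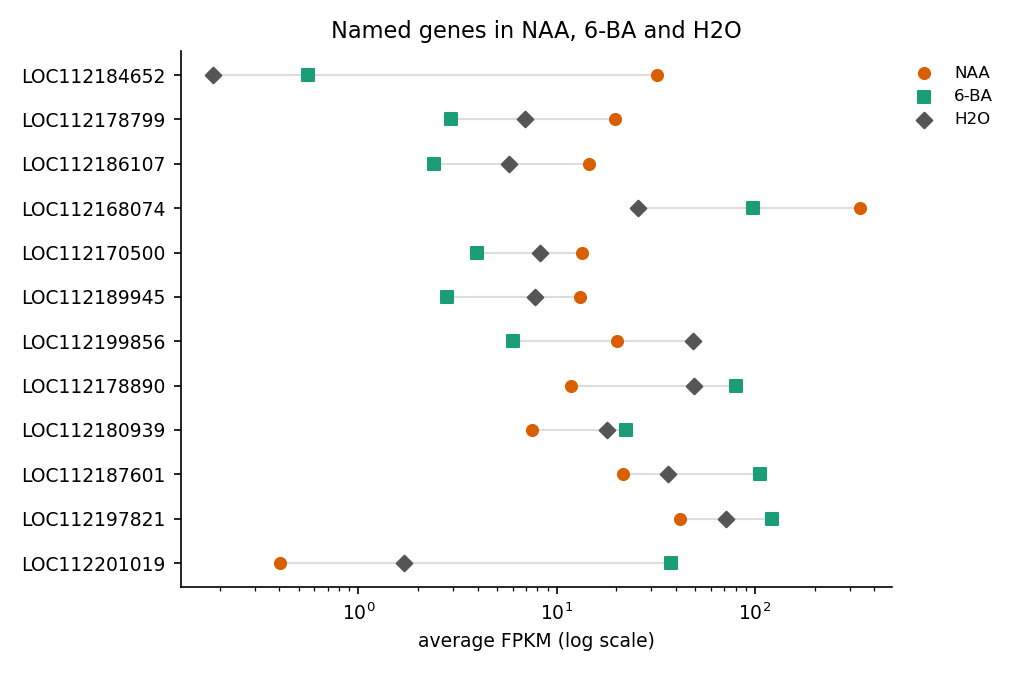
Average FPKM on a log scale of 12 named genes in NAA (circles), 6-BA (squares) and H2O (diamonds), with a line joining the lowest and highest value of each gene. The upper 7 genes were higher in NAA than in 6-BA and the lower 5 were lower, and H2O sits between NAA and 6-BA in all but LOC112184652, LOC112168074 and LOC112199856.

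In genes 2-fold apart with neither side 2-fold away from H2O, the level in H2O has to lie between those in NAA and 6-BA. The 187 higher genes of this kind had a median of 3.98 FPKM in NAA, 1.19 in 6-BA and 2.23 in H2O. LOC112170500 was at 13.4 in NAA, 3.97 in 6-BA and 8.26 in H2O. Among the 24 lower genes, LOC112197821 was at 42.0 in NAA, 122 in 6-BA and 71.2 in H2O. The most abundant gene apart, LOC112177241, was also of this kind, at 643 FPKM in NAA, 1303 in 6-BA and 913 in H2O. The averages cannot show whether either distance to H2O exceeds the spread between replicates.

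The genes on the 2 sides also differed in a feature the ratios did not use, the span of the deposited locus, which covers exons and introns. To keep neighbouring genes apart, only the 11550 genes alone at a single locus were used. The median span was 5.74 kb in the 340 genes higher in NAA, 1.14 kb in the 43 lower genes and 3.32 kb over all 11550. The spans from the lower to the upper quartile were 4.06 to 8.35 kb in the higher genes and 0.976 to 1.47 kb in the lower ones. Over all 11550 genes they were 2.16 to 4.97 kb, which overlaps the range of the higher genes. With genes at shared loci included, the ranges of the 416 higher and 56 lower genes overlapped, at 4.43 to 10.5 kb and 1.04 to 5.72 kb. Long spans were found in the higher genes whichever side had moved, with medians of 6.16 kb for NAA alone, 5.55 kb for 6-BA alone and 5.20 kb for neither. The lower genes were short in the same 3 classes, with medians of 1.04, 1.16 and 1.15 kb over 10, 11 and 21 genes. With shared loci included, the 19 lower genes of 6-BA alone had a median of 3.55 kb, against 3.81 kb over all 13919 genes.

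The shift with span ran through all genes and not only those 2-fold apart. The genes were divided by span into 5 groups of nearly equal size. In the group with the shortest loci, with a median span of 1.36 kb, the median log2 ratio of NAA over 6-BA was -0.20. It was -0.05, 0.04 and 0.12 in the next 3 groups and 0.24 in the group with the longest loci, with a median span of 7.17 kb. The share of genes higher in NAA was 0.648% in the shortest group and 8.01% in the longest, and the share of lower genes was 1.51% and 0.130%. Of the 43 lower genes 35 were in the shortest group. Against H2O the trend was found on the NAA side, with medians from -0.14 in the shortest to 0.22 in the longest group, and hardly on the 6-BA side, with 0.02 and -0.03. NAA was not alone in this. The medians of the shortest and the longest group were -0.24 and 0.38 in BR, -0.20 and 0.33 in GA, -0.27 and 0.40 in SA, -0.26 and 0.39 in AgNO3 and -0.07 and 0.23 in JA. They were 0.02 and 0.10 in 2,4-D, and ABA ran the other way with 0.08 and -0.06. All of these ratios share the H2O average. Spearman's rho between span and ratio, across 11550 genes, was 0.47 for NAA over 6-BA, 0.42 for NAA over H2O and -0.10 for 6-BA over H2O. It is a description across genes, which share libraries and are not replicates. The trend was present among genes with a mean under 10 FPKM, from -0.11 to 0.31, and among those of 10 FPKM or more, from -0.25 to 0.15.

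**Figure D4:**
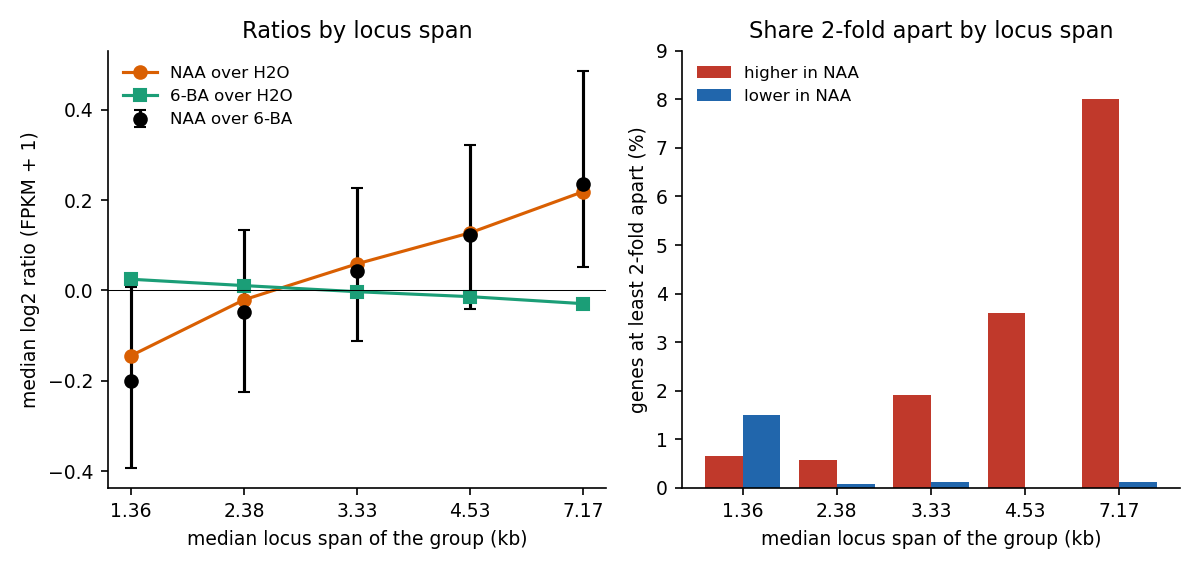
Left, median log2 ratio (FPKM + 1) in 5 groups of 11550 genes by locus span, for NAA over 6-BA (black, bars from the lower to the upper quartile of genes), NAA over H2O (orange) and 6-BA over H2O (green). Right, percent of genes at least 2-fold higher (red) and lower (blue) in NAA than in 6-BA, which is 8.01% and 0.130% in the longest group.

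Centred on the median ratio of genes with similar spans, fewer genes remained apart. Of the 340 higher genes alone at their loci 220 kept a 2-fold distance, and of the 43 lower genes 17. This centring was chosen after the values were seen. Quality measures moved with the comparison as well. Every NAA library had a higher RNA integrity number and more clean reads than every 6-BA library, by the study's own quality records, and 8468 transcripts were listed at 0 in NAA, 9085 in 6-BA and 8946 in H2O. The part of RNA quality and depth in the ratios was not tested. The H2O libraries overlapped both in RNA integrity number.

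The other 7 treatments in solution, whose averages were not used to choose the genes, did not stand between NAA and 6-BA in a common way. Doses differed between treatments, so the values are given side by side. The 416 genes higher in NAA had a median of 4.89 FPKM in NAA and 1.22 in 6-BA. The second synthetic auxin, 2,4-D, gave 3.38, and ABA gave 1.31, near 6-BA. The medians were 4.43 in JA, 5.32 in BR, 5.68 in GA, 7.08 in SA and 7.11 in AgNO3, against 1.96 in H2O. The level in NAA was thus within the range of the other treatments, and 6-BA, ABA and H2O formed the low end. 6-BA was the lowest of all 10 conditions in 184 of the 416 genes, or 44.2%, where it was the lowest in 8.47% of all genes compared. NAA was the highest of the 10 in 33, or 7.93%, where it was the highest in 5.37% of all genes. The choice of genes raises both shares.

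The 56 genes lower in NAA showed another order. Their median was 6.24 FPKM in NAA and 16.2 in 6-BA, followed by 14.0 in 2,4-D, 12.1 in BR, 9.87 in ABA, 16.7 in GA, 21.8 in JA, 7.85 in SA and 11.5 in AgNO3, against 8.52 in H2O. NAA was the lowest of the 10 conditions in 20 of the 56, or 35.7%, where it was the lowest in 3.76% of all genes. 6-BA was the highest in 11, or 19.6%, where it was the highest in 4.76% of all genes. Here too the choice of genes raises both shares. The 2 auxins differed in LOC112166597, which was at 219 FPKM in NAA, 536 in 6-BA, 941 in 2,4-D and 423 in H2O. They also differed in LOC112197821, at 155 in 2,4-D, above the values of both NAA and 6-BA. In LOC112178890 2,4-D was at 27.0, on the NAA side of H2O, but so were BR, ABA, GA, SA and AgNO3. Only JA and 6-BA stood above H2O in this gene, so a level below H2O was not particular to the auxins.

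**Figure D5:**
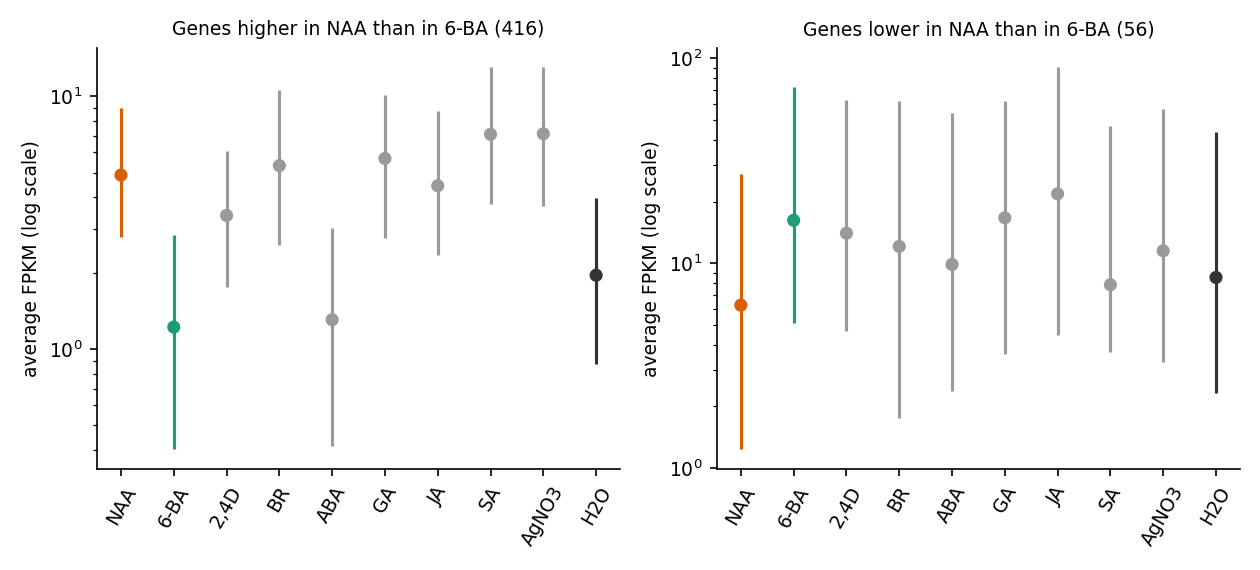
Median (points) and quartiles (bars) of average FPKM on a log scale over the 416 genes higher in NAA than in 6-BA (left) and the 56 lower genes (right), in NAA, 6-BA, the 7 other treatments in solution and H2O. On the left 6-BA and ABA have the lowest medians, 1.22 and 1.31, and on the right NAA has the lowest, 6.24.

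Single transcripts could move apart where the sum of a gene did not. In 1760 genes with several transcripts, of which at least 1 reached 5 FPKM in NAA or 6-BA, 2250 transcripts were compared. Of these transcripts 165 were at least 2-fold higher in NAA and 73 lower. A gene with only 1 transcript compared could not show both directions. There were 17 genes with 1 transcript at least 2-fold higher in NAA and another at least 2-fold lower. In all 17 the sum of the gene was less than 2-fold apart. In 13 of them NAA was farther from H2O than 6-BA in both transcripts. LOC112192313 (NC_037090.1:6916497-6919859) had a transcript at 1.23 FPKM in NAA, 26.8 in 6-BA and 33.3 in H2O and another at 16.7 in NAA, 3.48 in 6-BA and 4.60 in H2O. Its sum was 173 in NAA, 166 in 6-BA and 173 in H2O, most of it from another transcript at 155 in NAA, 135 in 6-BA and 135 in H2O. The transcript that was low in NAA was at 26.0 in 2,4-D and 27.6 in ABA but under 1 FPKM in BR, GA, SA and AgNO3. In LOC112186386 (NC_037089.1:82506594-82535587) the side 2-fold away from H2O was not the same in both transcripts. One transcript was at 45.2 FPKM in NAA, 168 in 6-BA and 126 in H2O, and only NAA passed the limit. The other was at 115 in NAA, 24.7 in 6-BA and 57.1 in H2O. There 6-BA passed the limit, and NAA was just short of it at a log2 ratio of 0.991. The split of reads between transcripts of a gene is an estimate of the authors' software and has no error in the deposited values.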

How the data were processed

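Petal RNA was sequenced by the authors, who mapped the reads with TopHat2 to the Rosa chinensis assembly RchiOBHm-V2, assembled transcripts with Cufflinks and Cuffmerge and deposited FPKM from Cuffdiff, as 1 average per transcript and condition. The sources used here do not give how FPKM were scaled from one condition to another. Transcripts with a common identifier were summed on the deposited FPKM scale. In the deposited files 9 identifiers already join neighbouring genes, of which 6 were compared and none was 2-fold apart. The limma test that had been planned was not run, because it requires each replicate's value. The 33 lists of hormone, tissue and other genes need gene names and were not run. Genes named had the largest ratios in each direction and class among genes of at least 10 FPKM, at most 2 each, where the rule allowed 15 per direction, with genes away from H2O in opposite directions and the most abundant ones. LOC112187519, LOC112199140, LOC112201649 and the genes named for their transcripts were chosen after their values were seen. The comparison, rules and lists were chosen with earlier results of these data known. The calculation was tested on simulated data. Alternatives were median scaling, a log2 ratio of 0.5 as the limit, 0.1 as the pseudocount, no minimum or 5 FPKM as the minimum, transcripts without summing, loci with 1 identifier and centring by locus span. Loci are given as deposited. Depth per value is unknown, since the averages carry no counts. Gas treatments were not used here. The tools were pandas 2.3.3 and numpy 2.4.6 under Python 3.11.15, with scipy 1.17.1, and matplotlib 3.10.9 for the figures.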

Additional observations from a re-analysis of the deposited data

Results flagged for a closer look

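In 8 genes the NAA and 6-BA averages were at least 2-fold away from the H2O average in opposite directions, and the difference was not tested, since each condition has 1 average. In all 8 NAA was above H2O and 6-BA below, but with a pseudocount of 0.1 there were 55 such genes and 4 with the directions turned round.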

How the results depend on the processing

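No paired analysis was possible because each condition is given as 1 average without its replicates, and leaving out replicates could not be done for the same reason. The alternatives for the hormone gene lists were not run, since the genes have no names. The counts below give the genes apart between NAA and 6-BA, those higher, those lower, those with a side 2-fold from H2O, and the higher genes with NAA alone and with 6-BA alone away from H2O, which were 472, 416, 56, 261, 180 and 36. With a pseudocount of 0.1 they were 949, 790, 159, 651, 343 and 124. At a log2 ratio of at least 0.5, the threshold of the study without its test, they were 2134, 1458, 676, 1516, 760 and 188. For transcripts without summing they were 912, 679, 233, 528, 295 and 76. With a minimum of 5 FPKM there were 246 genes apart, 204 higher, 42 lower, 148 with a side, 98 for NAA alone and 17 for 6-BA alone. Centring by locus span, which was chosen after seeing the data, used only loci with 1 identifier. These loci gave 383, 340, 43, 206, 143 and 30 before centring and 253, 232, 21, 134, 88 and 27 after it. The genes away from H2O in opposite directions, 8 higher in NAA and 0 lower, were 55 and 4 with a pseudocount of 0.1, 81 and 8 at a log2 ratio of 0.5, 10 and 1 for transcripts, 5 and 0 with a minimum of 5 FPKM, 7 and 0 under median scaling and at loci with 1 identifier, and 4 and 0 when centred by span. Median scaling gave 365 higher and 74 lower genes, and loci with 1 identifier, also chosen after seeing the data, gave 340 and 43. No minimum changes nothing here, since a 2-fold ratio of FPKM plus 1 needs at least 1 FPKM. The higher genes outnumbered the lower ones in each of these settings, by the smallest share, 68.3%, at a log2 ratio of 0.5.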
